A study of Drosophila melanogaster with 4 samples.

Results

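Glycolysis splits glucose into pyruvate in the cytosol and makes ATP without oxygen. Its early steps phosphorylate and rearrange the sugar and cleave it into triose phosphates, and its later steps oxidise the trioses and harvest ATP; lactate dehydrogenase can then turn pyruvate into lactate. In Drosophila the genes of the route are switched on together in mid-embryogenesis by the nuclear receptor ERR, and glia and muscle are known for strong use of the pathway. The enzymes described here were chosen by name, as every probe set (a group of array probes that reads one transcript) annotated to 1 of 10 listed genes: Pgi, Pfk, Tpi, Gapdh1, Gapdh2, Pgk, Pglym78, Eno, PyK and Ldh. Of the 14010 probe sets on the array, 7 met the rule. Each of Pgi, Pfk, Gapdh1, Pgk, Pglym78 and Eno had 1 probe set of its own, 6 genes of the 10844 so covered. Tpi shared its probe set with CG1607, so that signal cannot be given to either gene. No probe set in the annotation used here named Gapdh2, PyK or Ldh, and these 3 genes were not analysed here.

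Cells of cultured Drosophila melanogaster embryos gave 4 RNA samples, each hybridised to 1 one-colour Affymetrix array. All 4 were negative fractions, the cells left after fluorescence-activated sorting had removed a class of labelled neurons. The 2 Gad1-negative samples, a and b, were left by a sort for neurons in which a 2.1 kb promoter of Gad1, the gene of the GABA-making enzyme, drove the red protein dsRed1 by direct fusion. The 2 Cha-negative samples, a and b, were left by a sort for cholinergic neurons carrying GFP, from cultures 3 to 5 days old. The labels give no culture age for the Gad1 sort, no strain, and nothing on how GFP was driven, so the sort, the reporter and any difference in age cannot be told apart. Nor do they state if a and b came from separate cultures, and p-values measure the spread between these samples only. In such mixed RNA, fewer cells of a type and less RNA per cell cannot be told apart. The comparison asks how far the cells left by the 2 sorts differ in transcripts of sugar breakdown.

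The 4 arrays had the same trimmed mean as deposited, and their number limits the precision. The median probe set read 213 and 181 in Gad1-negative a and b, against 248 and 219 in Cha-negative a and b. A floor of 44.9, the 20th percentile over the 4 arrays, replaced every lower value. No glycolytic probe set came near it: the lowest value was 494.2. Each difference is a log2 value, Gad1-negative minus Cha-negative, and comes with its standard error (SE) and 95% interval from a limma fit over 6991 genes and 2 samples per group. All 6 genes with a probe set of their own lay above the intensity filter, a mean log2 intensity of 7.05.

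All 6 measured glycolytic genes averaged higher in Gad1-negative, by 0.86 to 1.38 on the log2 scale, or 1.81-fold to 2.60-fold. Among all genes tested, 47.7% averaged higher in Gad1-negative. In 5 of them, Pgi, Pfk, Gapdh1, Pglym78 and Eno, both Gad1-negative samples lay above both Cha-negative samples, whereas 14.7% of all genes tested did so. None passed the test: limma called 0 of the 6 at an adjusted p under 0.05, and 0 of all 6991 genes (0%). At an unadjusted p under 0.05 it again called 0 of the 6, against 4.93% of all genes. Data were also simulated with 2 samples per group and noise drawn separately for each gene, in a simulation revised after it had first failed. There the same fit called no gene at all with a true difference of the size seen here. A count of 0 thus does not show that these genes did not differ. Within a group, sample b exceeded sample a by 0.92 to 1.55 on the log2 scale in Gapdh1, Pgk, Pglym78 and Eno, and by 0.28 to 0.85 in Pgi and Pfk. In Pgk both gaps were larger than the group difference, and in Eno the Cha-negative gap was.

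Pgi, glucose-6-phosphate isomerase, turns glucose 6-phosphate into fructose 6-phosphate. It read 3558.5 and 4431.8 in Gad1-negative a and b, against 1801.7 and 2261.8 in Cha-negative a and b. The lowest Gad1-negative value lay clear of the highest Cha-negative value, and the replicates of each group lay close together. The difference was 0.98 ± 0.54 (SE, n = 2 per group; limma adjusted p = 0.925), with an interval from -0.27 to 2.22.

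Pfk, phosphofructokinase, commits the sugar to breakdown and is the classic point of control of the pathway. Its probe set gave 3259 and 3959.8 in Gad1-negative samples, against 1278.6 and 2299.3 in Cha-negative samples. The groups did not overlap, and Cha-negative a stood below the other three samples. The fitted difference was 1.07 ± 0.57, with an interval from -0.25 to 2.39. Both early enzymes thus showed the smallest ratios of highest to lowest sample among the 7 probe sets, at 2.46 for Pgi and 3.10 for Pfk.

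The probe set shared by Tpi, triose phosphate isomerase, and CG1607 read 1957.5 and 4230.9 in Gad1-negative samples, against 930.9 and 1687.2 in Cha-negative samples. Its groups did not overlap either, although Gad1-negative a was only 0.21 above Cha-negative b on the log2 scale. The mean difference was 1.20, given without a test because the signal belongs to no single gene.

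**Figure D1:**
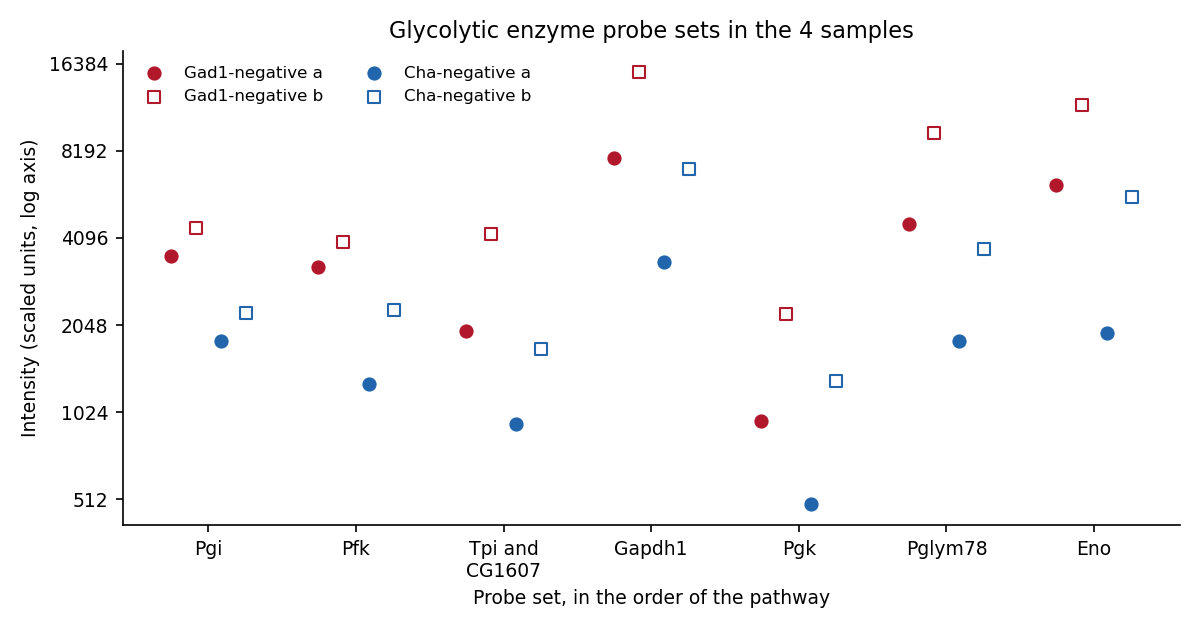
Intensity of the 7 glycolytic probe sets in pathway order (x axis) on a log axis (y axis, scaled units), with 1 point per sample: red for Gad1-negative, blue for Cha-negative, filled circles for a and open squares for b. Sample b lies above sample a in both groups for every probe set, and Pgk is the one whose groups overlap.

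Gapdh1, glyceraldehyde-3-phosphate dehydrogenase, oxidises the triose and passes its electrons to NAD+. It read 7743.1 and 15285.2 in Gad1-negative samples, against 3385.7 and 7105.4 in Cha-negative samples. The groups only just separated, since Gad1-negative a exceeded Cha-negative b by 0.12 on the log2 scale. The difference was 1.15 ± 0.68, with an interval from -0.43 to 2.73. Gapdh2 encodes a second enzyme of the same kind, and how far the Gapdh1 probe set also reads it was not tested.

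Pgk, phosphoglycerate kinase, catalyses the first step that returns ATP. It read 953.4 and 2234.9 in Gad1-negative samples, against 494.2 and 1314.5 in Cha-negative samples. Here the groups overlapped, because Cha-negative b stood above Gad1-negative a. Its difference was the smallest of the 6, at 0.86 ± 0.70, with an interval from -0.76 to 2.48.

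Pglym78, phosphoglycerate mutase, moves the phosphate group along the molecule. Its values were 4588.4 and 9468.8 in Gad1-negative samples, against 1801.8 and 3738.6 in Cha-negative samples. The groups did not overlap, and within each group b stood 1.05 above a on the log2 scale. The fit gave 1.34 ± 0.66, with an interval from -0.19 to 2.87.

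Eno, enolase, makes phosphoenolpyruvate, the last intermediate before pyruvate. It read 6227.6 and 11809.5 in Gad1-negative samples, against 1929.7 and 5659 in Cha-negative samples. Cha-negative a was low by itself, and Cha-negative b came within 0.14 of Gad1-negative a on the log2 scale. The difference, 1.38 ± 0.72, was the largest of the 6, and its interval ran from -0.29 to 3.05. Eno also had the widest range of the 7 probe sets, with the highest sample 6.12 times the lowest. The adjusted p was 0.925 for each of the 6 genes, and unadjusted p ran from 0.0770 for Pglym78 to 0.255 for Pgk.

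Set against the other genes, the 6 lay on the high side without reaching the extremes. Their median difference was 1.11, whereas the median over all genes tested was -0.04. A difference as large as that of Eno was found in 4.45% of all genes, and one as large as that of Pgk in 11.6%. The glycolytic probe sets were bright, and bright genes as a class leaned slightly the same way. Among the 1451 genes with a mean at or above that of Pgk, the dimmest of the 6, the median difference was 0.09 and the groups separated upwards in 17.9%. In that class 10.3% had a difference at least as large as that of Pgk, and 55.6% had a positive one.

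**Figure D2:**
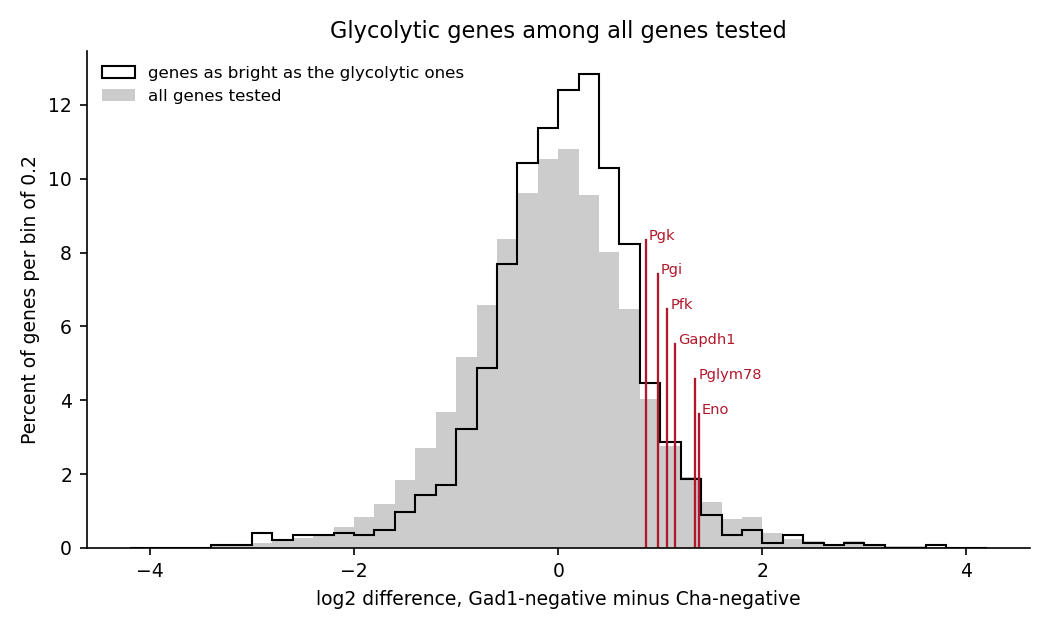
Distribution of the log2 difference, Gad1-negative minus Cha-negative (x axis), as percent of genes per bin of 0.2 (y axis), for all 6991 genes tested (grey) and for the 1451 genes as bright as the glycolytic ones (black outline). Red lines mark the 6 glycolytic genes, between 0.86 and 1.38, on the right shoulder of both distributions; the line heights carry no value.

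The spread between replicates had a pattern, though not one particular to these genes. In all 6 genes b stood above a in both groups, by a median of 0.95 on the log2 scale in Gad1-negative and 1.06 in Cha-negative. Over all genes tested the same gaps were -0.16 and 0.00, and among genes as bright they were 0.05 and 0.19. Every tested gene of the pentose phosphate list described below also stood higher in b than in a in both groups. Citric acid cycle genes were mixed: Mdh1 did so and Idh3b did not. Of the array controls described below, the 3′ end of eIF-4a did so as well, and that of actin did not. Between samples of one letter, Gad1-negative a exceeded Cha-negative a by a median of 1.27 (0.95 to 1.69), and Gad1-negative b exceeded Cha-negative b by 1.02 (0.77 to 1.34), with 6 of 6 genes positive in both. Across letters, Gad1-negative b exceeded Cha-negative a by a median of 2.18, and Gad1-negative a exceeded Cha-negative b by 0.22, with 5 of the 6 genes positive. In 5 of the 6 genes the samples stood in one order, from Cha-negative a through Cha-negative b and Gad1-negative a to Gad1-negative b. That order was found in 5.11% of all genes and in 6.69% of those as bright. The order was picked out from the values of these same genes, so the percentages describe it and do not test it. All 6 genes were read on the same arrays, so they do not count as separate observations of the order. Without Cha-negative a the median difference of the 6 genes was 0.63.

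The gap between b and a differed from gene to gene. In Gad1-negative it was 0.32 for Pgi and 0.28 for Pfk, whereas for Gapdh1, Pgk, Pglym78 and Eno it was 0.92 to 1.23. In Cha-negative it was 0.33 for Pgi and 0.85 for Pfk, against 1.05 to 1.55 for the other 4 genes. The gap did not divide the early steps from the later ones: the probe set shared by Tpi and CG1607 had gaps of 1.11 in Gad1-negative and 0.86 in Cha-negative, and the early enzyme Ald1, an aldolase, stood far higher in b than in a in both groups. The labels do not say what the letters share.

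**Figure D3:**
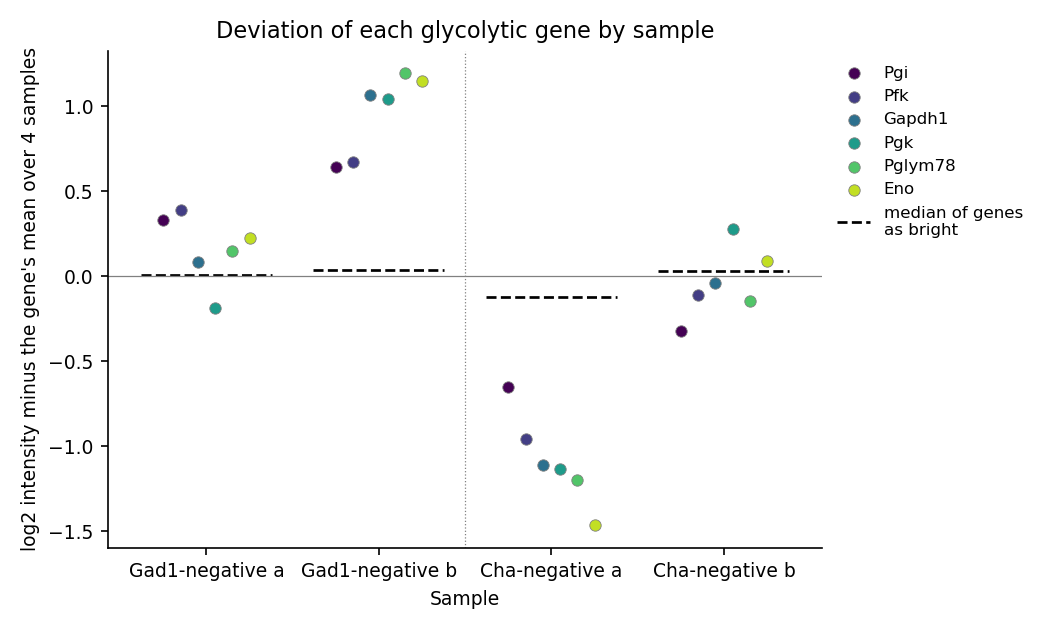
Log2 intensity of each of the 6 glycolytic genes minus its own mean over the 4 samples (y axis), by sample (x axis; Gad1-negative left of the dotted line), with dashed bars for the median of the 1451 genes as bright. The mean deviation of the 6 genes is 0.17 and 0.96 in Gad1-negative a and b, against -1.09 and -0.04 in Cha-negative a and b. Pgi and Pfk spread least.

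The array also carries control probe sets for the 3′ end, the middle and the 5′ end of a GAPDH transcript, which give a further reading of the same enzyme. At the 3′ end, where labelling starts, they read 13158.8 and 26514.5 in Gad1-negative samples, against 6470.4 and 17154.3 in Cha-negative samples. Here Cha-negative b lay above Gad1-negative a, so that the groups overlapped, unlike those of the Gapdh1 probe set; the mean difference was 0.83. The middle probe set read 3565.5 and 12903.3 in Gad1-negative, against 1755.4 and 3882.9 in Cha-negative, again with overlap.

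At the 5′ end the same transcript read 551.5 and 697 in Gad1-negative samples, against 25.1, which is under the floor, and 92.6 in Cha-negative samples. The separation of the groups was thus widest at the 5′ end. The ratio of 3′ to 5′ signal, a sign of how much of each transcript was intact or copied, was 23.9 and 38.04 for the Gad1-negative samples. For the Cha-negative samples it was 144 or more in a, whose 5′ signal was under the floor, and 185 in b. For eIF-4a, a translation factor, this ratio was 230 and 77.1 in Gad1-negative, against bounds of at least 321 and 935 in Cha-negative. The actin ratios overlapped, at 82.1 and 106 in Gad1-negative against 59.4 and 124 in Cha-negative. The ratio of 3′ to middle signal did separate actin, at 4.79 and 2.55 in Gad1-negative against 5.57 and 5.74 in Cha-negative. It also separated eIF-4a, at 3.30 and 1.90 against 4.55 and 5.66. For GAPDH it overlapped, at 3.691 and 2.05 against 3.686 and 4.42, as it did for 18S rRNA. The GAPDH and eIF-4a ratios of 3′ to 5′ signal thus separated the groups as 5 of the 6 glycolytic genes did, being lower in Gad1-negative. So did the actin and eIF-4a ratios of 3′ to middle signal. The part of these ratios in the glycolytic difference was not tested. Which Gapdh gene the controls read is not stated in the annotation.

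**Figure D4:**
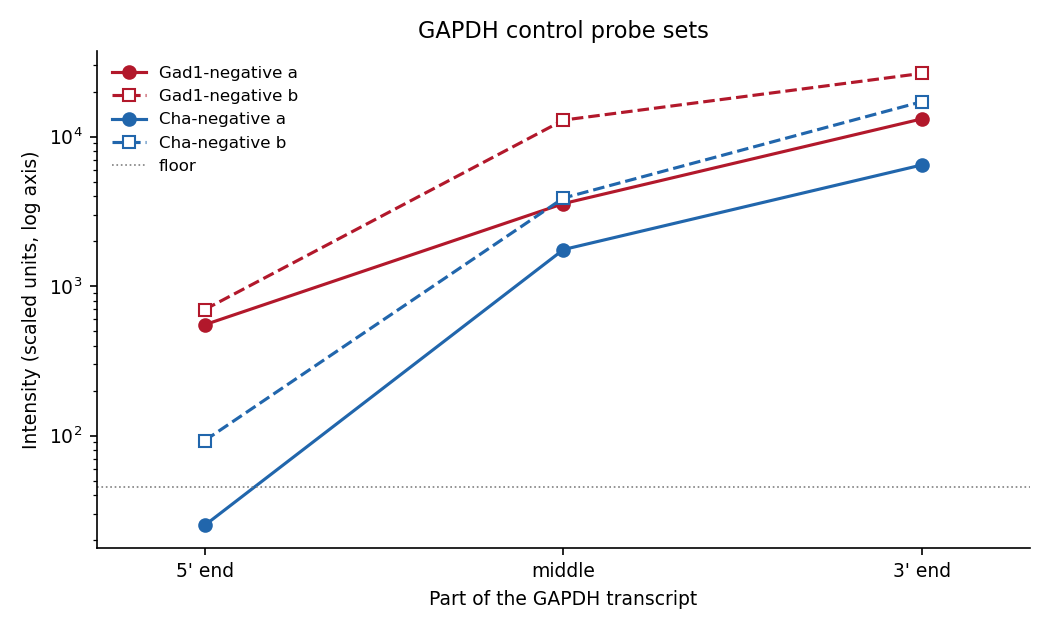
Intensity of the GAPDH control probe sets (y axis, log scale, scaled units) at the 5′ end, middle and 3′ end of the transcript (x axis), 1 line per sample, with the floor of 44.9 as a dotted line. The groups are apart at the 5′ end, at 551.5 and 697 in Gad1-negative against 25.1 and 92.6 in Cha-negative, and overlap at the middle and the 3′ end.

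A wider list of sugar genes held further glycolytic enzymes, sugar transporters, trehalase and the genes that build or break down glycogen, and 0 of them passed the test. Of 19 listed genes, 17 had a probe set of their own and 11 lay above the filter. Of these, 9 had a positive and 2 a negative difference, with a median of 0.69 against -0.04 for all genes tested. Without Cha-negative a that median was 0.27. The positive ones included Glys, UGP and AGBE, which serve glycogen storage, named after their values had been seen. Glyp, glycogen phosphorylase, which releases glucose units from glycogen, read 2824.1 and 2681.5 in Gad1-negative, against 728 and 722.5 in Cha-negative. Its replicates nearly coincided within each group, unlike those of the later glycolytic genes. The difference was 1.92 ± 0.51 (limma adjusted p = 0.782, unadjusted p = 0.00582). Pgm1, phosphoglucomutase, which passes that glucose on to Pgi, read 1547.2 and 2129 in Gad1-negative, against 500.8 and 879.1 in Cha-negative (1.45 ± 0.56), and its groups did not overlap. Glut1, a glucose transporter, was lower with no overlap, at 463.4 and 346 in Gad1-negative against 877.7 and 584.9 in Cha-negative (-0.84 ± 0.55).

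Enzymes that fill the gaps in the listed route gave values as well; these were picked after their values had been seen. Hex-A, a hexokinase, which starts the pathway, read 764.6 and 658.1 in Gad1-negative, against 228.1 and 586.4 in Cha-negative (0.96 ± 0.63). Ald1, the aldolase that splits the sugar, read 3778.2 and 17869.7 in Gad1-negative, against 1739.7 and 7995.8 in Cha-negative (1.14 ± 0.97). In Ald1 both b samples stood above both a samples. Pglym87, a relative of Pglym78, lay under the filter, at 15.3 and 33.3 in Gad1-negative against 51.4 and 34.3 in Cha-negative.

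The pentose phosphate branch, which makes NADPH and ribose from glucose 6-phosphate, was read through a list of 8 genes that also holds Men, malic enzyme, which makes NADPH outside the branch. All 6 genes above the filter, Men among them, were positive, and the median was 1.22 with 0 called. That median moved with single samples: it was 0.20 without Gad1-negative b, 0.77 without Cha-negative a and 1.90 without Gad1-negative a. Pgls, 6-phosphogluconolactonase, read 256.7 and 272.6 in Gad1-negative, against 35.3, under the floor, and 108.4 in Cha-negative (1.92 ± 0.88). Taldo, transaldolase, read 1006.5 and 3785.6 in Gad1-negative, against 445.3 and 1097.9 in Cha-negative (1.48 ± 0.78), so Gad1-negative a lay below Cha-negative b. CG8036, annotated as a transketolase, read 2739.6 and 14237.4 in Gad1-negative, against 1484.4 and 3832 in Cha-negative (1.39 ± 0.88) and overlapped in the same way.

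Genes that run against glycolysis or beside it, those of gluconeogenesis and the glycerol phosphate shuttle, went both ways. Of 9 listed, 6 were tested, 3 were positive and 3 negative, the median was -0.05 and 0 were called. PCB, pyruvate carboxylase, read 2253.6 and 2295.8 in Gad1-negative, against 1275.2 and 435 in Cha-negative (1.61 ± 0.64). Fructose-1,6-bisphosphatase, the product of fbp, opposes Pfk; fbp read 381.3 and 437.5 in Gad1-negative, against 455 and 52 in Cha-negative (1.41 ± 1.01), with Cha-negative b low by itself. G6P, glucose-6-phosphatase, read 431.6 and 301.1 in Gad1-negative, against 573.2 and 627.3 in Cha-negative (-0.73 ± 0.55).

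The mitochondrial steps that burn pyruvate mostly had positive differences too. Of 24 listed genes of pyruvate dehydrogenase and the citric acid cycle 18 were tested, 16 of them positive and 2 negative, with a median of 0.36 and 0 called. The median was 0.03 without Gad1-negative b and 0.20 without Cha-negative a, against 0.76 without Gad1-negative a and 0.80 without Cha-negative b. Idh3b, a subunit of isocitrate dehydrogenase, read 450.2 and 296.9 in Gad1-negative, against 241.2 and 97.8 in Cha-negative (1.25 ± 0.73). In muc, the acetyltransferase of pyruvate dehydrogenase, the values were 842.4 and 1084.4 in Gad1-negative, against 346.7 and 699.5 in Cha-negative (0.96 ± 0.58). In mAcon1, aconitase, they were 2238 and 5215.7 in Gad1-negative, against 941.1 and 2768 in Cha-negative (1.08 ± 0.72), with overlap. The difference between this list and the glycolytic genes was not tested.

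**Figure D5:**
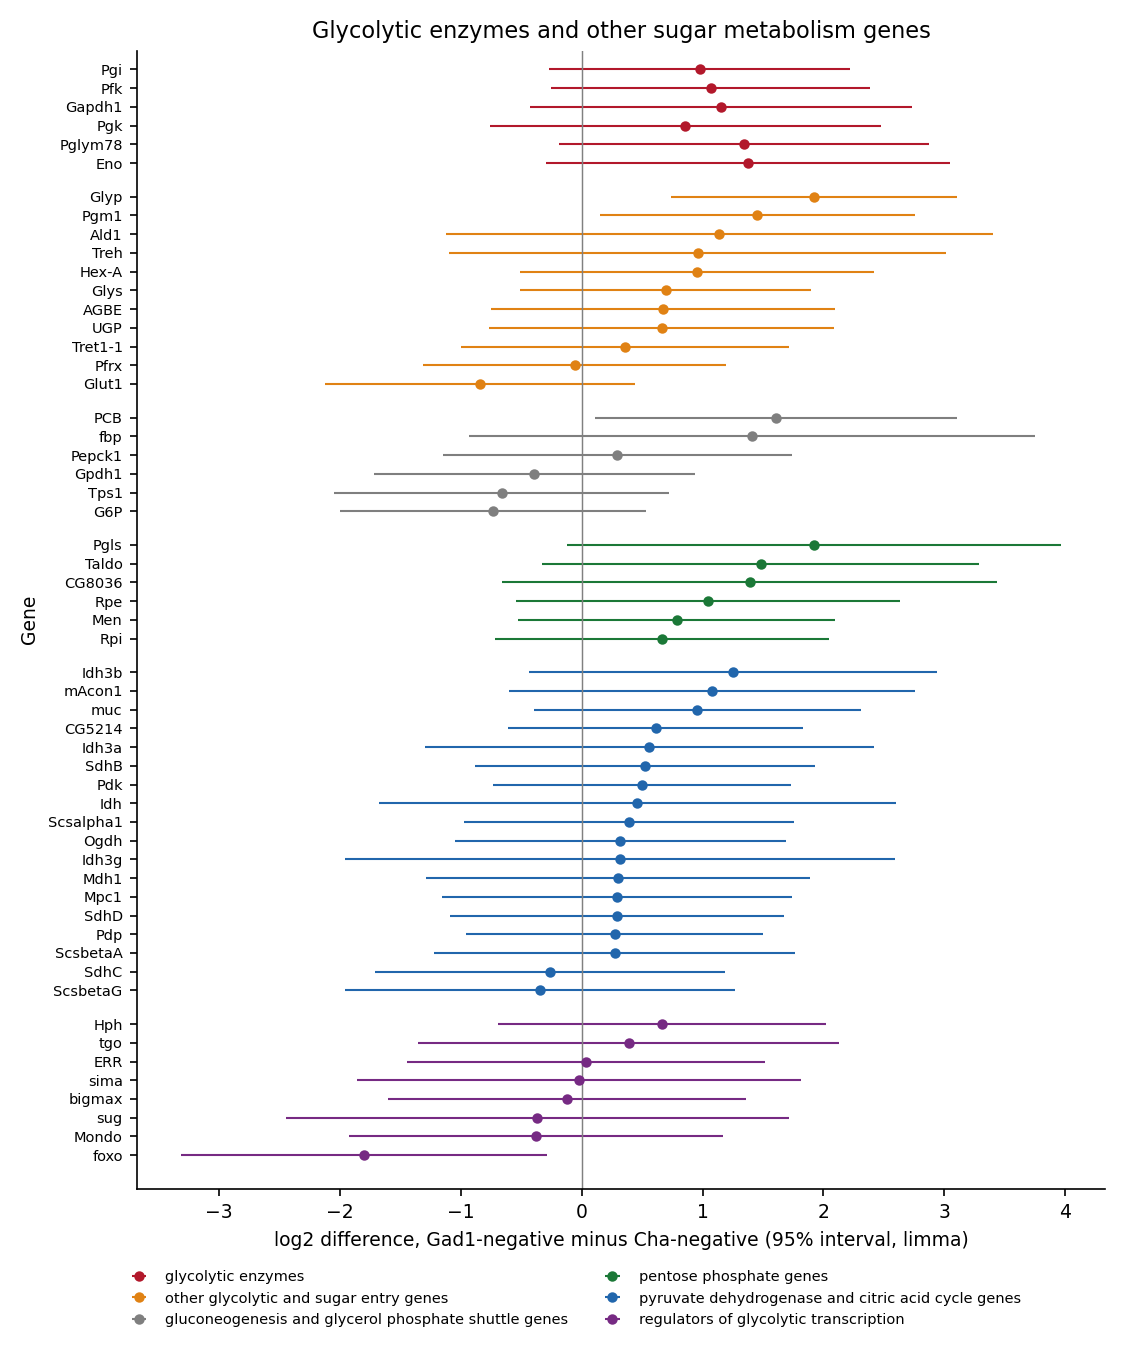
Log2 difference, Gad1-negative minus Cha-negative (x axis), with its 95% limma interval, for each tested gene (y axis) of the glycolytic enzymes and 5 lists of related genes, which are told apart by colour. The intervals of all 6 glycolytic genes cross 0; those of Glyp, Pgm1, PCB and foxo do not, and none of the genes shown passed after adjustment.

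Regulators of glycolytic transcription showed no common direction. Of 10 listed, 8 were tested, 3 of them positive and 5 negative, with a median of -0.07 and 0 called. ERR itself read 324.7 and 270.1 in Gad1-negative, against 403.3 and 207 in Cha-negative (0.04 ± 0.64), with the Gad1-negative values inside the Cha-negative range. For sima, the hypoxia-inducible factor, the values were 149.5 and 175.9 in Gad1-negative, against 115.7 and 235.1 in Cha-negative (-0.02 ± 0.79). Both ERR and sima were named after their values had been seen. The transcription factor foxo, held in check by insulin signalling, read 115.5 and 124.4 in Gad1-negative, against 473.6 and 367.1 in Cha-negative (-1.80 ± 0.65; limma adjusted p = 0.925, unadjusted p = 0.0256). Hph, the prolyl hydroxylase that marks sima for destruction, differed by 0.66 ± 0.59, and the sugar sensor Mondo by -0.37 ± 0.67.

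Markers of the cell types that the fractions could hold were read beside these genes. Counts of positive markers stand beside the 47.7% of all genes tested that had a positive difference. Muscle and neuroblast markers were higher in summed intensity in Gad1-negative. The 8 muscle markers with a probe set summed to 6420.4 and 11203.4 in Gad1-negative a and b, against 5540.1 and 2472.7 in Cha-negative a and b, with 6 of 8 tested genes positive; no probe set named Mhc, the muscle myosin, in the annotation used here. The brightest gene in the sum was Mlc2, a myosin light chain, which read 4097.6 and 7432.4 in Gad1-negative, against 2043.9 and 1115.7 in Cha-negative. Without it the muscle sums were 2322.8 and 3771 in Gad1-negative, against 3496.2 and 1357 in Cha-negative, and overlapped. The largest muscle difference was that of Prm, paramyosin, at 377.6 and 797.2 in Gad1-negative against 73.3 and 52.2 in Cha-negative (3.15 ± 0.76; limma adjusted p = 0.782). Going the other way were Mf, at -0.82, and up, at -0.27, and sls, counted as positive, differed by 0.004. All these muscle genes were named after their values had been seen. Within Cha-negative, the whole muscle sum was lower in b than in a, the reverse of the glycolytic genes. The 8 neuroblast markers summed to 9635.5 and 4934.3 in Gad1-negative, against 4267.2 and 4072.9 in Cha-negative, with 7 of 8 positive. The neuroblast gene mira read 4094.3 and 1825.9 in Gad1-negative, against 1102.9 and 1107.9 in Cha-negative. Without mira the neuroblast sums overlapped, at 5541.2 and 3108.4 in Gad1-negative against 3164.3 and 2965 in Cha-negative. Gut markers summed to 907.6 and 702.3 in Gad1-negative, against 2025.6 and 3068.3 in Cha-negative, with 0 of 4 tested genes positive, and their sums stayed apart without the brightest gene, Jon65Aiv, at 750.9 and 383.2 in Gad1-negative against 1612.5 and 1267.4 in Cha-negative.

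Whole sums for the other cell types overlapped between groups. Without the brightest gene of each list, the glial, haemocyte and fat body sums still overlapped and the neuronal sums did not. The 8 glial markers summed to 5108.3 and 3904.5 in Gad1-negative, against 3732.9 and 5418.6 in Cha-negative, with 3 of 8 positive. The brightest gene in the sum was loco. Gene by gene, 3 of 8 glial markers (repo, wrapper and alrm) were lower in both Gad1-negative samples than in both Cha-negative samples. Against these, 1 (nrv2) was higher in both. Of all 6991 genes tested, 1403 were lower in that way and 1026 higher. The separations of repo and nrv2 were near ties, at 473 against 473.1 and 295.7 against 291.4. The genes wrapper, alrm and nrv2 were named after their values had been seen. The glial identity gene repo read 473 and 180.1 in Gad1-negative, against 512.6 and 473.1 in Cha-negative. The 9 neuronal markers summed to 1608 and 3184.3 in Gad1-negative, against 2899.7 and 3448 in Cha-negative, with 2 of 4 tested genes positive. Of these 4, 2 were lower and 1 was higher with no overlap. The brightest gene in the neuronal sum was fne, named after its values had been seen. Without it the neuronal sums were 825.7 and 2264.8 in Gad1-negative, against 2384.5 and 2678.1 in Cha-negative, and stood apart. The gene of the pan-neuronal RNA-binding protein, elav, read 67.2 and 909.3 in Gad1-negative, against 165.2 and 335 in Cha-negative. For the 11 haemocyte markers the sums were 8507.8 and 4969.3 in Gad1-negative, against 6049.9 and 3887.7 in Cha-negative, with 7 of 10 positive. The haemocyte gene Hml read 334.4 and 141.9 in Gad1-negative, against 622.6 and 246.2 in Cha-negative. The 7 fat body markers summed to 2687.8 and 6392.2 in Gad1-negative, against 7791.8 and 2457.8 in Cha-negative, with 3 of 4 positive. No marker of these 7 lists lay under the floor in all 4 samples. The part of each cell type in the glycolytic difference was not tested.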

How the data were processed

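Total RNA of 4 negative fractions was measured on 1 array each. The authors deposited 1 intensity per probe set, on a linear scale, in the series' value table; the software is not given in the sources used here. The 2%-trimmed means were equal (500.1), so arrays were not normalised further. Of 14010 probe sets, 12443 named 1 gene, 327 several and 1196 none, and 44 were controls. Genes were named from the platform annotation through Entrez identifiers. No coordinates are given, since the probes' build is not named, and no sequences are shown.

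Before log2 was taken, lower intensities were raised to the 20th percentile. For a gene with several probe sets, the one with the highest mean was used, and genes at or above the 40th percentile of probe set means were tested; the controls were left out of this percentile, a choice made after an earlier count of genes was known. The two-sided test was limma's (version 3.58.1, R 4.3.3; lmFit, then eBayes with a trend), which left 2 residual degrees of freedom, and p-values were adjusted by Benjamini-Hochberg over 6991 genes. The code was tested on simulated data: signs and the error rate without a difference came out as simulated, only very large differences were called, and both the simulation and its pass mark were revised after it had first failed. Tables were made with pandas 2.3.3 and numpy 2.4.6 under Python 3.11.15, and figures with matplotlib 3.10.9.

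The members and the lists were chosen with earlier results of these data known. Named by rule were all listed glycolytic genes, up to 3 tested genes per related list with the smallest unadjusted p, and the markers elav, repo, Mhc, Hml and mira. Further genes were named after their values had been seen. Among them were Hex-A, Ald1, Pglym87, Glys, UGP, AGBE, ERR, sima and Mdh1, and the markers Mlc2, Prm, Mf, up, sls, wrapper, alrm, nrv2 and fne. The GAPDH, actin, eIF-4a and 18S control ratios use the floor for weaker 5′ signals and are then lower bounds; the 18S ratio was 18.0 and 18.8 in Gad1-negative against 59.2 and 17.3 in Cha-negative. Tried as alternatives were other scalings, floors, filters, probe set rules and variance models, the replicate letter as a block, other thresholds and leaving out each sample.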

Additional observations from a re-analysis of the deposited data

How the results depend on the processing

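Over 17 alternative fits the 6 glycolytic genes gave 102 differences, 102 of them positive. Fits with another floor percentile, filter, probe set rule or variance model, or with the replicate letter as a block, returned the reported differences unchanged. Their signs are therefore repeats and do not count as further support. With all samples kept, 0 passed the adjusted threshold of 0.05, and limma's adjusted p went no lower than 0.515. Without the filter 1 of the 6, Pgi, had an unadjusted limma p under 0.05, against 6.62% of all genes. With an adjusted p under 0.10 on the fit as reported, 0 passed. No gene of the 5 related lists was called under any of the 17. With all samples kept, the median of the 6 ran from 0.99 (quantile normalization) to 1.35 (median centring, which moved the median of all genes to 0.20). Leaving out 1 sample moved it to between 0.63, with Cha-negative a left out, and 1.62, with Cha-negative b left out; leaving out Gad1-negative a gave 1.56, and Gad1-negative b 0.82. The medians of the related lists moved too: over the 4 samples left out in turn, sugar genes ran from 0.27 to 0.91, pentose phosphate genes from 0.20 to 1.90, pyruvate dehydrogenase and citric acid cycle genes from 0.03 to 0.80, gluconeogenesis and shuttle genes from -0.27 to 0.46, and regulators from -0.30 to 0.19. The Pgk difference was 0.15 when Cha-negative a was dropped and 0.24 when Gad1-negative b was. A lone sample is then assumed to vary like the other group. The count of genes with both Gad1-negative samples above both Cha-negative samples, examined after the data were seen, was 5 under quantile normalization, cyclic loess and median centring, where 17.3%, 17.9% and 22.8% of all genes met it, against 14.7% as reported. With 1 sample left out, an easier criterion that 27.0% to 32.6% of all genes met, it was 5 or 6. With the replicate letter as a block the median was 1.11 and 0 were called, while 3 of the 6 (Gapdh1, Pglym78 and Eno) had an unadjusted p under 0.05, against 8.60% of all genes tested. Across the 6991 genes, the gap of b over a in Gad1-negative correlated at 0.25 with that in Cha-negative. With only 2 pairs it cannot be told whether the letters pair the samples, and the fit as reported did not pair them. Signals lay well above the floor, and the number of arrays limits the precision.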
